A study of Mus musculus with 7 samples.

Results

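Saa3, Serpina3n, Hp, Cp and Lcn2 are 5 mouse genes that encode acute-phase proteins, and their transcripts were followed here in macrophages sorted from GL261 gliomas and from normal brain. They were taken as every probe set that carries exactly 1 gene symbol in the platform annotation, where that symbol is one of the 5. This gave 12 of the 45101 probe sets on the array and 5 of the 18193 genes with such a probe set. The 5 genes were chosen with values of this contrast known, so their differences between the groups are given as a description without a test. The tumour group held 4 arrays of macrophages from GL261 tumours (a mouse glioma line) taken on day 21 after intracranial injection into C57/Bl6 mice that had received GFP bone marrow. The normal brain group held 3 arrays of macrophages from 8-week-old C57/Bl6 mice. In both groups the brain was digested with what the labels spell PAPIN and the cells were selected on GFP and F4/80, a surface protein of mouse macrophages. Neither GFP marrow in the mice of the normal brain group nor the age of the tumour-bearing mice is stated in the labels, and host cells without GFP fell outside the sort as the labels describe it. Biotin-labelled cRNA made from 2 ug of total RNA was hybridised to Affymetrix arrays, and each value is a MAS5 signal, a linear brightness per probe set. Nothing in the labels ties an array to an animal or a culture, so errors and p-values measure only the spread between arrays.

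Acute-phase proteins are secreted in quantity when tissue is injured or infected. In liver their genes are switched on by interleukin 6 and interleukin 1 through the transcription factors STAT3, C/EBP beta, C/EBP delta and NF-kappa B. Several of them are also made outside the liver by macrophages, astrocytes and endothelial cells. Saa3 encodes the serum amyloid A protein that mouse macrophages and fat make, Serpina3n a secreted inhibitor of serine proteases, Hp haptoglobin, which binds free haemoglobin, Cp the copper-containing ferroxidase ceruloplasmin, and Lcn2 a lipocalin that holds the iron carriers of bacteria.

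RefSeq promoter entries were found for 4 of the 5 genes on the mouse build GRCm38.p6. The 250 bases before the annotated start are shown 5′ to 3′ on the strand of the gene because the acute-phase transcription factors named above act there. Capitals mark matches to TTNNGNAA, a loose core of the C/EBP site searched on both strands. The windows are chr7:46715677-46715926 on the minus strand for Saa3, chr12:104406458-104406707 on the plus strand for Serpina3n, chr3:19956999-19957248 on the plus strand for the second of the 2 Cp starts, and chr2:32387740-32387989 on the minus strand for Lcn2.
Saa3: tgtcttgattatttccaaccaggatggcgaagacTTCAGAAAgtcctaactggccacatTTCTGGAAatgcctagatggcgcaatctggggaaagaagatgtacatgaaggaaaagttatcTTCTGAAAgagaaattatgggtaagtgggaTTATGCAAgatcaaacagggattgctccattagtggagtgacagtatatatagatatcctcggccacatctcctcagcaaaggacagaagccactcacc
Serpina3n: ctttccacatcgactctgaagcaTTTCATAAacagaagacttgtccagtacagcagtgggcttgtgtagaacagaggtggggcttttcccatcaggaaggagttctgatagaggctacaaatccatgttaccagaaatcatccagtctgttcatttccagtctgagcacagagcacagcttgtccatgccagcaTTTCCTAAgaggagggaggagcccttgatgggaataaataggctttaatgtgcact
Cp: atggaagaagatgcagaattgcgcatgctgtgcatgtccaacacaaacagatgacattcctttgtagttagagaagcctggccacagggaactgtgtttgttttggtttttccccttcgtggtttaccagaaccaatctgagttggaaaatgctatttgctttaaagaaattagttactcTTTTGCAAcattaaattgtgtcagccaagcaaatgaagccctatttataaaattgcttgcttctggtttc
Lcn2: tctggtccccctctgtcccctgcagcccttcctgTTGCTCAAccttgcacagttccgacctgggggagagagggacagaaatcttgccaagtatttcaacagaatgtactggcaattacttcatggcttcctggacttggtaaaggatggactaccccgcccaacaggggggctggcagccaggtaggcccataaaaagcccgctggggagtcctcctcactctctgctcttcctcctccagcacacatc
The Saa3 window held 4 such matches, Serpina3n 2, and Cp and Lcn2 1 each, as did the other Cp window. Of 32851 RefSeq windows of 250 bases, 36.8% held at least 1 match, 10.9% at least 2 and 0.591% at least 4. Neither TTCNNNGAA, a core of the STAT site present in 7.02% of windows, nor the kappa B motif, present in 7.25%, was found in any of these windows on either strand. A match describes letters only, and no binding was measured.

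The deposited signals had a trimmed mean near 500 on every array, so overall brightness was already equal by that measure. The median signal was 58.3 ± 5.83 (SD, n = 4) in GL261 and 58.2 ± 12.8 (SD, n = 3) in normal brain. Single arrays ranged from 50.9 to 65.0 in GL261 and from 49.5 to 73.0 in normal brain. Signal of the 3′ Gapdh control probe set over that of the 5′ one, a measure of RNA integrity, was 1.75 ± 0.13 (SD, n = 4) in GL261 and 2.41 ± 0.02 (SD, n = 3) in normal brain (two-sided exact permutation p = 0.0286, the smallest that 35 splits can give), and its part in the differences below was not tested. GL261 array 2 stood apart from the other tumour arrays in its markers of other cell types, and values without it are given below. Probe sets for Bacillus genes put the background at a signal of 12.3 to 19.9, depending on the array. Differences below are between means of log2(signal + 6), GL261 minus normal brain, with the standard error (SE) from limma.

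Saa3 was bright in the tumour macrophages and dim in normal brain. Its single probe set, 1450826_a_at, read 1945, 973, 1612 and 2502 on GL261 arrays 1 to 4, against 54.0, 119 and 2.08 on normal brain arrays 1 to 3. All 4 GL261 arrays lay far above all 3 normal brain arrays, and the brightest normal array was still well below the dimmest tumour array. On the log2 scale Saa3 averaged 10.71 ± 0.57 (SD, n = 4) in GL261 and 5.30 ± 2.05 (SD, n = 3) in normal brain, a difference of 5.41 (SE 0.75) or 42.5-fold. The probe set was above background on 4 of 4 GL261 arrays and on 2 of 3 normal brain arrays. With the third normal array raised to its background the ratio was 28.8-fold. The difference was 4.27 without normal brain array 3 and 6.24 without normal brain array 2. Without GL261 array 2, the dimmest tumour array, it was 5.66.

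Saa3 lies on chromosome 7 beside Saa4, Saa1 and Saa2, and these neighbours were dim. The brighter Saa1 probe set, 1419075_s_at, for a serum amyloid A made chiefly by liver, read 3.42, 4.48, 76.6 and 4.33 in GL261, against 11.5, 8.02 and 30.9 in normal brain. It was above background on 1 array of each group, and the other Saa1 probe set, 1450788_at, on 0 arrays of either group. Saa2 read 5.11 to 30.7 in GL261 and 29.5 to 36.5 in normal brain, and Saa4 stayed at or below 7.79 on every array. None of the 3 reached the signal needed for testing. Of 6 measured receptors and partners of serum amyloid A, all tested, 2 were higher and 2 lower in GL261. Cd36, a scavenger receptor, was higher by 1.42 (SE 0.34; limma adjusted p = 0.0229) and Scarb1, the receptor for high-density lipoprotein that also takes up serum amyloid A, by 0.69 (SE 0.17; limma adjusted p = 0.0262). Tlr2, a pattern receptor of the innate response, was lower with a difference of -0.62 (SE 0.14; limma adjusted p = 0.0195) and P2rx7, an ATP-gated channel, with -0.55 (SE 0.15; limma adjusted p = 0.0374). Leaving out 1 array ended each of these calls in at least 5 of 7 trials. The highest limma adjusted p was 0.0762 for Cd36 without GL261 array 3, 0.0644 for Scarb1 without GL261 array 2, 0.058 for Tlr2 without normal brain array 2 and 0.12 for P2rx7 without normal brain array 3. Other settings also ended them: the replicate block for all but Tlr2, and median centring and a variance prior that does not follow the signal for all but Cd36 (adjusted p up to 0.134 for Tlr2). The P2rx7 call was lost under 5 further settings, with an adjusted p of up to 0.359 for the mean of its probe sets. The other Scarb1 probe sets, 1437378_x_at and 1455820_x_at, differed by 0.19 and 0.24 with overlap (limma adjusted p = 0.631 and 0.472), and the mean of the 3 differed by 0.37 (limma adjusted p = 0.206). Of the other Cd36 probe sets, 1450883_a_at was higher by 2.13 without overlap (limma adjusted p = 0.00251). Probe set 1450884_at differed by 0.27 with overlap (limma adjusted p = 0.818).

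Serpina3n was of middling brightness in the tumour macrophages and near background in normal brain. Probe set 1419100_at read 319.8, 700.4, 273 and 419.5 on GL261 arrays 1 to 4, against 13.9, 1.39 and 32.5 on normal brain arrays 1 to 3. Every GL261 array was above every normal brain array, with GL261 array 2 the brightest. The log2 means were 8.67 ± 0.59 (SD, n = 4) in GL261 and 4.16 ± 1.20 (SD, n = 3) in normal brain, a difference of 4.51 (SE 0.62) or 22.8-fold. All 4 GL261 arrays but only normal brain array 3 were above background, and the ratio with the other two at background was 14.98-fold. The difference was 3.88 without normal brain array 2, 5.07 without normal brain array 3 and 4.25 without GL261 array 2. Serpina3n lies on chromosome 12 next to Serpina3j, Serpina3k and Serpina3m, which with Serpina3f and Serpina3g were not measured here by a probe set with 1 symbol. Whether this probe set also binds transcripts of these close relatives was not tested. Serpina3a read 9.31 to 24.5 in GL261 and 15.7 to 31.6 in normal brain, and Serpina3i 0.838 to 13.8 in GL261 and 5.01 to 9.71 in normal brain.

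Of 7 proteases that SERPINA3 proteins are reported to bind or that resemble those targets, 4 were tested and 2 were higher in GL261, with 0 lower. At an unadjusted p under 0.05 limma gave 2 higher and 1 lower. Gzmb, the granule protease granzyme B of cytotoxic lymphocytes, read 2487, 1126.5, 2546 and 2884 in GL261, against 727, 532 and 727 in normal brain. It was higher by 1.69 (SE 0.30; limma adjusted p = 0.00581) and the groups did not overlap. Ctsl, the lysosomal protease cathepsin L, was higher by 0.61 (SE 0.16; limma adjusted p = 0.0363). That call was lost without normal brain array 1, 2 or 3 or GL261 array 1, 3 or 4, with an adjusted p of up to 0.103 without GL261 array 3. The other Ctsl probe set, 1457724_at, differed in the opposite direction, by -0.44 with overlap (limma adjusted p = 0.395), and the mean of both differed by 0.08 (limma adjusted p = 0.818). Elane and Ctsg, the neutrophil elastase and cathepsin G, were too dim to test, with Ctsg at 1.38 to 10.9 in GL261 and 29.0 to 101 in normal brain.

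Hp was bright in both groups and did not separate them. Probe set 1448881_at read 543, 2078, 694 and 843 on GL261 arrays 1 to 4, against 1331, 1094 and 725 on normal brain arrays 1 to 3. GL261 array 2 was the brightest of all 7 and GL261 array 1 the dimmest, so the groups overlapped fully. The log2 means were 9.83 ± 0.84 (SD, n = 4) in GL261 and 10.001 ± 0.44 (SD, n = 3) in normal brain. Their difference of -0.17 (SE 0.40) had a 95% confidence interval of -1.04 to 0.69, which leaves room for a change of either sign. Leaving out GL261 array 2 made it -0.57, while leaving out GL261 array 1 or normal brain array 1 gave 0.07 or 0.02. The highest GL261 array was 3.83 times the lowest, the widest range of the 5 genes within the tumour group, ahead of 2.57 for Saa3 and for Serpina3n, 2.13 for Lcn2 and 1.53 for Cp.

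Haptoglobin with its haemoglobin is taken up by CD163 and the haem is then broken down by haem oxygenase and biliverdin reductase. All 6 measured genes of this route were tested; 2 were higher and 1 lower in GL261. Cd163 read 86.0, 66.2, 168 and 144 in GL261, against 482, 466 and 284 in normal brain, without overlap. Its difference was -1.82 (SE 0.47; limma adjusted p = 0.0306). Blvra, biliverdin reductase A, was higher by 0.67 (SE 0.15; limma adjusted p = 0.0166) and Hmox1, the inducible haem oxygenase, by 0.51 (SE 0.14; limma adjusted p = 0.0374). The Cd163 call was lost without normal brain array 1 or 2 or GL261 array 1, 2 or 3 (adjusted p up to 0.0783, without normal brain array 1). The Hmox1 call was lost without any 1 array except normal brain array 1 (adjusted p up to 0.111, without normal brain array 2), and the Blvra call without GL261 array 3 (adjusted p = 0.0531). Blvra was also not called with median centring, the replicate block, the variance prior that does not follow the signal, or GL261 array 2 and normal brain array 1 left out together (adjusted p up to 0.104). The same 4 settings and 3 others ended the Hmox1 call (adjusted p up to 0.175), and the block and the paired omission ended that of Cd163 (adjusted p up to 0.141). Hpx, hemopexin, which binds free haem, was too dim to test, at 2.99 to 23.8 in GL261 and 2.52 to 26.5 in normal brain.

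Cp was bright in both groups and lower in the tumour macrophages on each of its 8 probe sets by their means. The brightest, 1417494_a_at, read 1281, 923, 1417 and 1227 on GL261 arrays 1 to 4, against 2739.5, 2963 and 3499 on normal brain arrays 1 to 3. The groups stood clear of each other, with GL261 array 2 the lowest of the 7. The log2 means were 10.23 ± 0.26 (SD, n = 4) in GL261 and 11.58 ± 0.18 (SD, n = 3) in normal brain, a difference of -1.35 (SE 0.18), so that normal brain was 2.54-fold above GL261. It ranged from -1.43 to -1.22 when 1 array was left out, with -1.22 without GL261 array 2.

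The other Cp probe sets gave values of the same order. The groups did not overlap on 7 of the 8. Over the 7 that were above background on all arrays, the differences ran from -1.53 to -0.39 with a median of -1.27. The weakest was 1448735_at, which read 147, 108, 66.5 and 66.2 in GL261, against 56.4, 220 and 144 in normal brain, and overlapped. The dimmest was 1441326_at, which read 10.4, 0.782, 7.50 and 11.5 in GL261, against 44.1, 52.4 and 37.8 in normal brain. It was at background on all 4 GL261 arrays, so only a bound is given, at least 2.48-fold lower in GL261. GL261 array 2 was the lowest of the tumour arrays on 5 of the 8 probe sets. These probe sets read the same gene on the same arrays and are not replicates of each other.

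**Figure D1:**
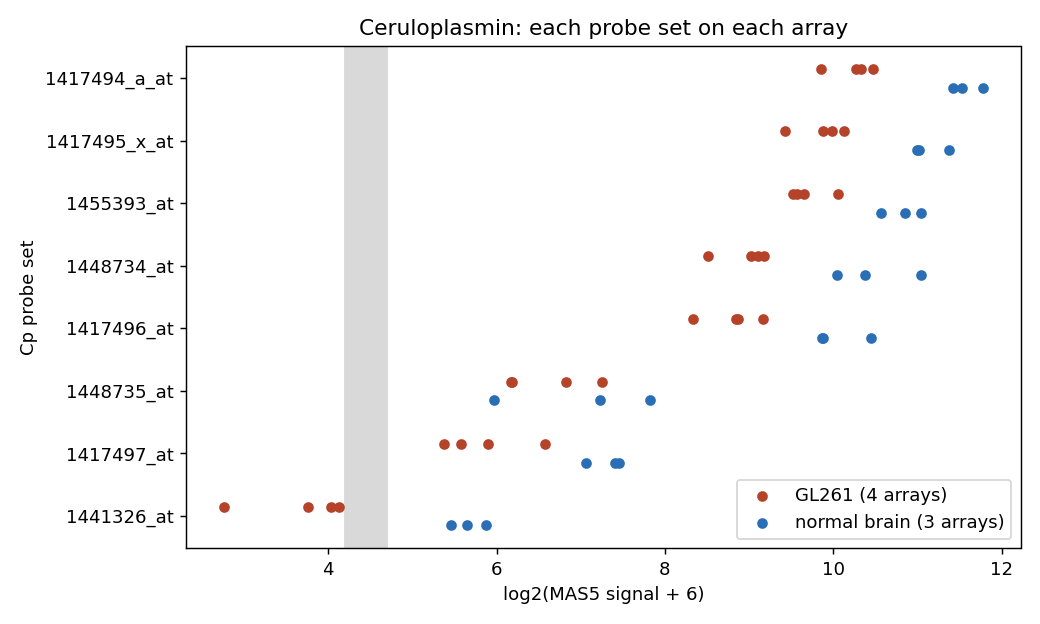
Each of the 8 Cp probe sets (rows) on each array, as log2(MAS5 signal + 6) on the horizontal axis; red points are the 4 GL261 arrays, blue points the 3 normal brain arrays, and the grey band spans the background levels of the 7 arrays. The red points lie left of the blue points without overlap on 7 of the 8 probe sets, and on 1441326_at they lie at or below the band.

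Ceruloplasmin oxidises the iron that ferroportin, encoded by Slc40a1, lets out of the cell. Of 11 genes of iron export and storage, 8 were tested, 2 were higher in GL261 and 0 lower, also at an unadjusted p under 0.05 in limma. Slc40a1 read 1731, 1532, 1391 and 1387 in GL261, against 938, 589 and 789 in normal brain, and was higher by 0.98 (SE 0.21; limma adjusted p = 0.0138). A variance prior that does not follow the signal ended that call, as did the mean of both probe sets (adjusted p up to 0.0594), the second of which, 1448566_at, overlapped (limma adjusted p = 0.2). Slc11a1, an iron and manganese transporter of the phagosome, was higher by 0.73 (SE 0.17; limma adjusted p = 0.0206). That call was lost without normal brain array 2 or 3 or GL261 array 1 or 3, with an adjusted p of up to 0.0733 without normal brain array 3, and under median centring and the same variance prior (adjusted p up to 0.0985). Heph and Hephl1, the relatives of Cp, were too dim to test.

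Lcn2 was bright in both groups and lower in the tumour macrophages by less than Cp. Probe set 1427747_a_at read 527, 669, 579.8 and 1120.1 on GL261 arrays 1 to 4, against 1161, 1244 and 1439 on normal brain arrays 1 to 3. The groups did not overlap, but GL261 array 4 came close to normal brain array 1. The log2 means were 9.45 ± 0.48 (SD, n = 4) in GL261 and 10.32 ± 0.16 (SD, n = 3) in normal brain, a difference of -0.88 (SE 0.27), so that normal brain was 1.84-fold above GL261. It was -1.11 without GL261 array 4 and -0.75 without GL261 array 1. Of 4 receptors and partners of lipocalin 2, 2 could be tested and 0 were called in either direction, also at an unadjusted p under 0.05 in limma. Mmp9, the gelatinase that lipocalin 2 binds, read 271, 778, 231 and 164 in GL261, against 1254, 1337 and 251 in normal brain, a difference of -1.31 (SE 0.62; limma adjusted p = 0.207) with overlap. Slc22a17, a lipocalin 2 receptor, differed by -0.27 (SE 0.46; limma adjusted p = 0.751). Of 6 other lipocalin genes 3 were tested and 0 called, with 0 higher and 1 lower at an unadjusted p under 0.05. Among them Ptgds, prostaglandin D synthase, differed by -0.96 (SE 0.43; limma adjusted p = 0.185) and Apod, apolipoprotein D, by 0.69 (SE 0.39; limma adjusted p = 0.286).

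The 5 genes thus formed no single pattern across the arrays. Saa3 and Serpina3n were higher in GL261 on every array, Cp and Lcn2 lower on every array, and Hp overlapped. Of the 5 genes 4 had groups without overlap, as had 23.4% of the 12125 genes tested. The genes were selected on this contrast, so nothing is read from the count. Within the tumour group the order of the arrays also differed between the genes. GL261 array 2 was the lowest for Saa3 and Cp and the highest for Serpina3n and Hp, while GL261 array 4 was the highest for Saa3 and Lcn2.

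**Figure D2:**
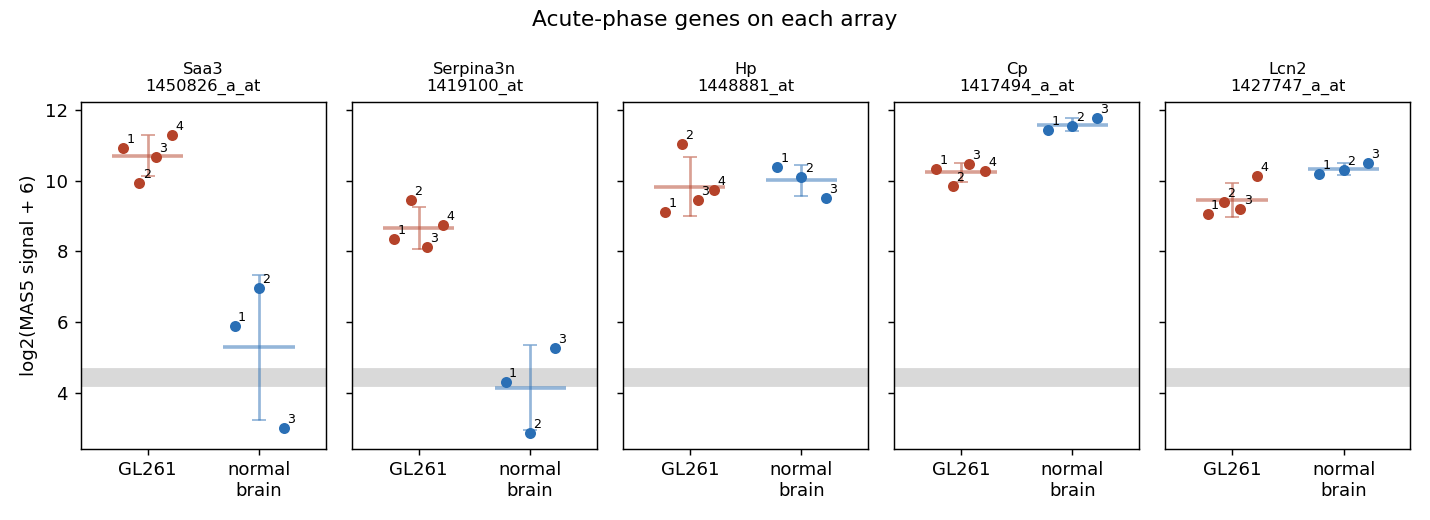
log2(MAS5 signal + 6) of the 5 acute-phase genes, 1 panel each, on the 4 GL261 arrays (red, left) and the 3 normal brain arrays (blue, right), numbered by array; horizontal lines are group means, error bars the SD, and the grey band the background levels of the 7 arrays. Saa3 and Serpina3n are high in GL261 and lower in normal brain, where 2 of 3 arrays for Saa3 and 1 of 3 for Serpina3n lie above background; Hp overlaps between the groups, and Cp and Lcn2 are lower in GL261.

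The genes whose profile over the 7 arrays was most like each of the 5 were found by the root mean square (RMS) difference of log2 values, each gene centred on its own mean. For Saa3 these were Gzmc, a granzyme (RMS difference 0.64), Adamtsl4, an extracellular glycoprotein (0.91), and Atp6v0d2, a subunit of the proton pump that acidifies lysosomes (0.97). For Serpina3n they were Col11a1, a collagen chain (0.63), Bcat1, a branched-chain amino acid transaminase (0.69), and Nav3 (0.70). For Hp they were the long non-coding RNA Mirt1 (0.11), Lrg1, itself an acute-phase glycoprotein (0.24), and Ecscr, an endothelial cell surface protein (0.26). For Cp they were Sfi1 (0.16), Jun, a subunit of the transcription factor AP-1 (0.16), and Bcl11a, a zinc-finger repressor (0.20). For Lcn2 they were Bcl9, a cofactor of beta-catenin (0.11), Hspb11 (0.14) and Yeats2 (0.15). The likeness was measured on the same 7 arrays from which the 5 genes were chosen. Differences between the groups dominate it for Saa3, Serpina3n and Cp. The 3 genes most like Serpina3n passed the low-signal filter through GL261. Col11a1 and Nav3 were above background on 0 of 3 normal brain arrays, and Bcat1, like Serpina3n, on 1 of 3. Their likeness on the normal brain arrays is therefore mostly between background values. Lrg1 read 96.0, 250.4, 116 and 101 in GL261, against 161, 141 and 115 in normal brain, so that it too was brightest on GL261 array 2.

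Beyond the 5, the acute-phase genes with the largest differences were Cfb, higher in GL261, and Ttr, lower. Over all the lists of acute-phase and partner genes together, 81 of 143 genes were tested, 13 were higher in GL261 (16.0%) and 8 lower (9.88%). Over all genes tested 5.92% were higher and 4.2% lower at an adjusted p under 0.05. The median log2 difference was -0.02 over the lists and 0.04 over all genes tested. The lists were chosen with earlier results of these data known, and genes that passed the low-signal filter through 1 bright group count among those tested. Without GL261 array 3 the higher count was 7. The lower count was 4 without GL261 array 1 or 3 and 5 without GL261 array 4 or normal brain array 1 or 2.

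Of 33 other positive acute-phase genes, 28 were measured and 12 tested; 4 were higher in GL261 and 0 lower, and at an unadjusted p under 0.05 limma gave 6 higher and 0 lower. Cfb, complement factor B of the alternative pathway, read 7169, 4729, 7117 and 7576 in GL261, against 199, 305 and 358 in normal brain. It was higher by 4.52 (SE 0.23; limma adjusted p = 2.6e-06), with all 4 GL261 arrays far above the normal brain arrays. Timp1, an inhibitor of metalloproteinases, was higher by 2.96 (SE 0.51; limma adjusted p = 0.00499). Mt2, a metal-binding metallothionein, was higher by 1.15 (SE 0.22; limma adjusted p = 0.00867), a call lost with a variance prior that does not follow the signal (adjusted p = 0.066). Il1rn, the interleukin 1 receptor antagonist, was higher by 0.90 (limma adjusted p = 0.00509) and is named here after its value was seen. Lbp, which binds bacterial lipopolysaccharide, differed by 2.11 (limma adjusted p = 0.0561) and Serping1, the C1 inhibitor, by 1.94 (limma adjusted p = 0.0573). Neither was called, and both fall outside the naming rule given below. Without normal brain array 2 the Lbp difference was 1.341 (limma adjusted p = 0.1515). Over all settings the limma adjusted p ran from 0.0424 to 0.784 for Lbp and from 0.025 to 0.164 for Serping1. Of the 28 measured, 7 were at background on all 7 arrays. The classic liver products Crp, Apcs, Fga, Fgg, Orm2 and Orm3 read below 20 on every array and were not tested. Orm1, also too dim to test, was above background on 3 of 4 GL261 arrays and 1 of 3 normal brain arrays, with overlap. Its log2 means were 5.10 ± 1.57 (SD, n = 4) in GL261 and 4.37 ± 0.68 (SD, n = 3) in normal brain. C3 and C4b were not measured here by a probe set with 1 symbol.

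Of 10 negative acute-phase genes, which fall in liver during the response, 8 were measured and 3 tested, with 0 higher and 1 lower in GL261; at an unadjusted p under 0.05 limma gave 1 of each. Ttr, transthyretin, read 34.2, 80.2, 26.3 and 14.5 in GL261, against 2538, 3027 and 1875 in normal brain, a difference of -5.97 (SE 0.51; limma adjusted p = 0.000131). Ttr is also the main secreted product of the choroid plexus. The other 6 measured choroid plexus markers were too dim to test, and the part of that tissue in the Ttr signal was not tested. Alb, albumin, read 18.6 to 43.3 in GL261 and 10.1 to 25.4 in normal brain. Of 10 hepatocyte markers measured 4 were at background on all 7 arrays, and their summed signal was 117 to 257 in GL261 and 91.5 to 254 in normal brain.

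Among the cytokines that induce the response 10 of 13 were tested, with 0 higher and 2 lower in GL261; at an unadjusted p under 0.05 limma gave 1 higher and 2 lower. Lif, leukaemia inhibitory factor, read 302, 208, 91.5 and 115 in GL261, against 982, 809.5 and 1309 in normal brain, a difference of -2.61 (SE 0.43; limma adjusted p = 0.00435). A second Lif probe set, 1450160_at, was too dim to test and differed by -0.04. Tnf differed by -1.25 (SE 0.21; limma adjusted p = 0.00416), also without overlap. Il6 read 182, 191, 618 and 331 in GL261, against 332, 167 and 580.0 in normal brain, a difference of -0.13 (SE 0.53; limma adjusted p = 0.909). Il1b was among the bright genes in both groups, at 8929 to 14074 in GL261 and 11588 to 15656 in normal brain, and differed by -0.23 (SE 0.19; limma adjusted p = 0.47). Of 11 receptors for these cytokines, all tested, 0 were called, and at an unadjusted p under 0.05 limma gave 0 higher and 4 lower. The receptor chains Lifr, Il6ra and Il6st differed by -0.49 (limma adjusted p = 0.14), -0.38 (limma adjusted p = 0.141) and -0.54 (limma adjusted p = 0.153).

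Of 16 signalling genes and transcription factors tested, 1 was higher and 2 lower in GL261. Cebpb, which encodes C/EBP beta, was higher by 0.99 (SE 0.20; limma adjusted p = 0.012), with log2 means of 12.28 ± 0.29 (SD, n = 4) in GL261 and 11.29 ± 0.36 (SD, n = 3) in normal brain. Centring each array on its median ended that call, as did a variance prior that does not follow the signal (adjusted p up to 0.0742). A second Cebpb probe set, 1427844_a_at, differed by 0.71 (limma adjusted p = 0.379). Nfkbiz, a nuclear regulator of NF-kappa B, differed by -0.98 (SE 0.16; limma adjusted p = 0.00371), and its other probe sets 1448728_a_at and 1457404_at differed by -1.34 and -1.49. Relb, an NF-kappa B subunit, differed by -0.73 (SE 0.18; limma adjusted p = 0.0268). The Relb call was lost without normal brain array 1 or 2 or GL261 array 1, 3 or 4, with an adjusted p of up to 0.0723 without GL261 array 1, and under median centring, the replicate block, that variance prior and the omission of GL261 array 2 with normal brain array 1 (adjusted p up to 0.0821). Stat3 differed by 0.57 (SE 0.18; limma adjusted p = 0.0594). Its other probe sets 1426587_a_at, 1459961_a_at and 1424272_at differed by 0.26, 0.19 and 0.25 with overlap (limma adjusted p = 0.56, 0.698 and 0.796). Socs3, the feedback inhibitor of STAT3, differed by -0.25 (limma adjusted p = 0.409) and Cebpd by -0.88 (SE 0.35; limma adjusted p = 0.134).

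**Figure D3:**
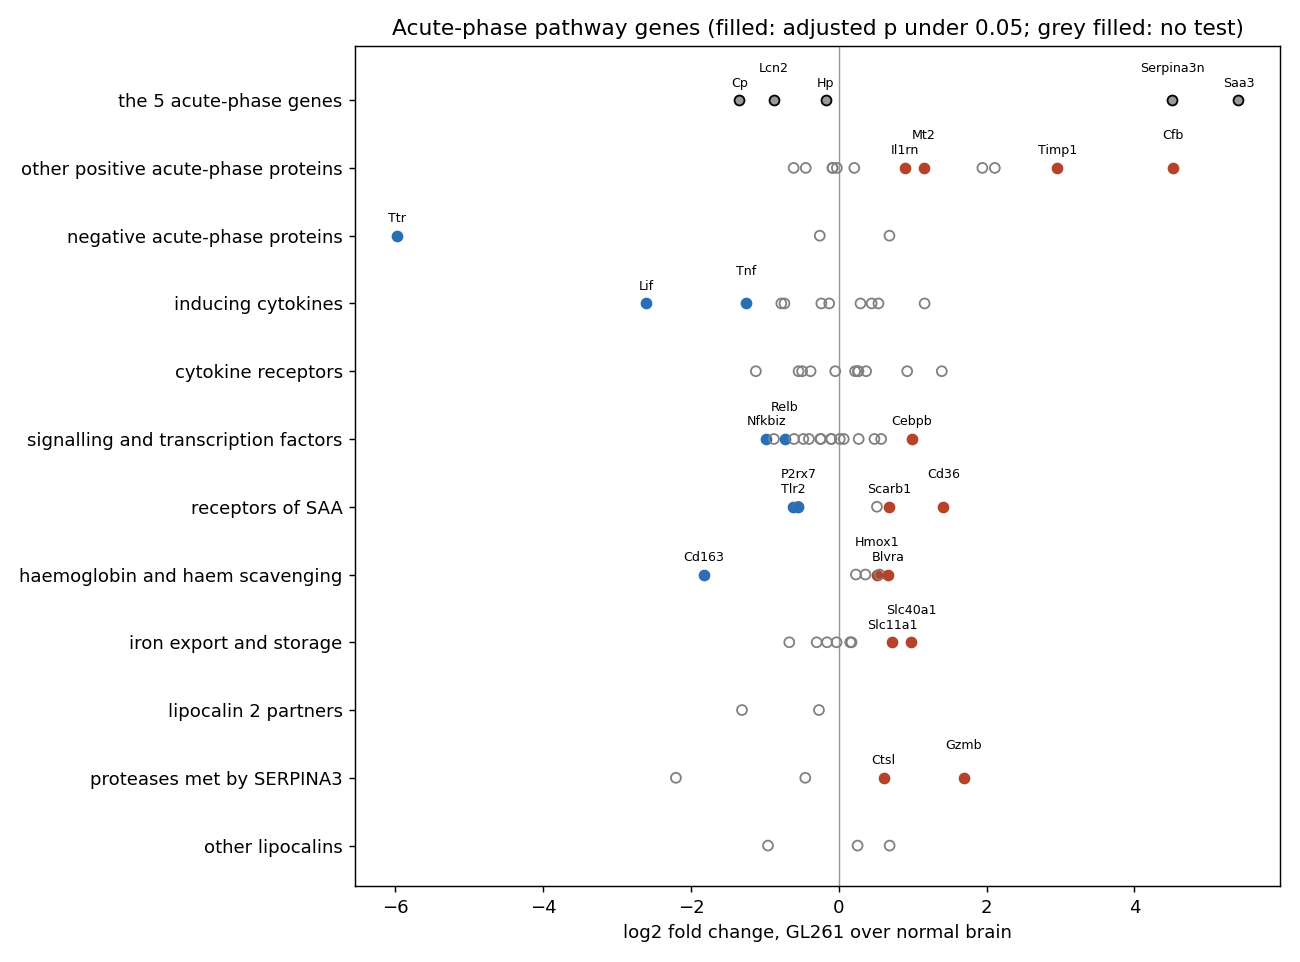
log2 difference, GL261 minus normal brain, of each tested gene in the acute-phase and partner lists (rows). Red and blue filled points passed an adjusted p of 0.05 in limma as higher and lower, and open points did not. The 5 chosen genes in the top row are grey because no test is given for them, though they were part of the fit. Cfb and Timp1 lie to the right and Ttr and Lif to the left, while no cytokine receptor is filled.

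In bulk samples such as these, fewer cells of a type and less RNA per cell cannot be told apart. Macrophage and microglia markers were bright in both groups, with a summed signal of 53900 to 69833 in GL261 and 64604 to 76379 in normal brain over 11 genes, of which 1 was higher and 3 lower in GL261. Markers of some other cell types moved with the groups, while no astrocyte or hepatocyte marker was called. Lcn2 and Hp are stored in neutrophil granules, and 6 of 10 tested neutrophil markers were lower in GL261 and 0 higher (0 and 7 at an unadjusted p under 0.05 in limma, higher and lower). Their summed signal was 17694 to 23860 in GL261 and 41394 to 52720 in normal brain. Ngp, a granule protein, read 61.8, 583, 32.7 and 35.4 in GL261, against 2255, 1982 and 2573 in normal brain. Elane was at background on all 4 GL261 arrays, and Mpo, myeloperoxidase, on 2 of them. Among the macrophage markers the calls of Mertk (higher) and of Cx3cr1 and Tmem119 (lower) were lost in 4 or 5 of 7 trials that left out 1 array, with an adjusted p of up to 0.0863. P2ry12, the third lower marker, differed by -1.28 (SE 0.25; limma adjusted p = 0.00913) and kept its call in all 7 trials (adjusted p up to 0.0344). A variance prior that does not follow the signal ended the P2ry12 call (limma adjusted p = 0.0574). The part of neutrophil RNA in the Lcn2 and Hp values was not tested.

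GL261 array 2 differed from the other tumour arrays in the same markers. Relative to the mean of the 7 arrays on the log2 scale, the neutrophil markers averaged 0.29 on GL261 array 2 and -1.26 to -1.01 on the other 3 tumour arrays. Endothelial markers averaged 0.37 on array 2 against -1.23 to -0.97 on the others, and erythroid markers 1.40 against -2.95 to -2.50. Hp was 1.12 on array 2 and -0.80, -0.45 and -0.17 on GL261 arrays 1, 3 and 4. Array 2 was also the highest tumour array for oligodendrocyte lineage markers (1.04 against 0.475 to 0.861). The same held for fibroblast and pericyte markers (1.04 against 0.02 to 0.814) and for Serpina3n (2.73 against 1.39 to 2.00). Astrocyte and macrophage markers on array 2 lay within the range of the other tumour arrays. Of 10 endothelial markers tested 3 were lower in GL261 and 0 higher. At an unadjusted p under 0.05 limma gave 1 higher and 6 lower. Pecam1 and Kdr differed the other way, by 1.23 and 0.43, and neither was called. The summed signal of the endothelial list was 7324 to 8328 in GL261 and 11639 to 13714 in normal brain. Of 3 erythroid markers 2 were lower, with 76.9 to 4498 in GL261 and 9421 to 16097 in normal brain, the high tumour value being array 2. The calls of Cldn5 among the endothelial and Alas2 among the erythroid markers were lost without GL261 array 3 or 4 or normal brain array 3, and that of Cldn5 also without GL261 array 1 or normal brain array 1 (adjusted p up to 0.0632 and 0.059). Without GL261 array 2 and normal brain array 1 together, the array pair of the 2 groups most alike (r = 0.922 across the genes tested), the differences were 5.97 for Saa3, 4.33 for Serpina3n, -0.38 for Hp, -1.30 for Cp and -0.93 for Lcn2.

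Serpina3n, Cp and Lcn2 are known products of reactive astrocytes. Of 10 astrocyte markers tested 0 were called, with 1 higher and 0 lower at an unadjusted p under 0.05 in limma, and their summed signal was 1883 to 3793 in GL261 and 1553 to 4013 in normal brain. Among 8 genes reported in reactive astrocytes 3 were higher and 1 lower in GL261, and macrophages express several of these, such as Cd44. The Cd44 call was lost whichever 1 array was left out (adjusted p up to 0.0964, without normal brain array 3), so that 2 were then higher in each trial. Fibroblast and pericyte markers were higher for 3 of 11 tested and lower for 0 (8 and 0 at an unadjusted p under 0.05), with a summed signal of 3094 to 4892 in GL261 and 838 to 2119 in normal brain. Of the 3, Col3a1 kept its call when any 1 array was left out, and Col1a1 and Dcn lost theirs in 6 and 5 of 7 trials, with an adjusted p of up to 0.091 and 0.154. Of 6 oligodendrocyte lineage markers 3 were higher, among them Sox10, which read 372, 648, 330.3 and 384.5 in GL261, against 24.4, 0.900 and 2.03 in normal brain. It was above background on 4 of 4 GL261 arrays and 1 of 3 normal brain arrays, and passed the low-signal filter through GL261. The summed signal of this list was 2261 to 3978 in GL261 and 3544 to 5746 in normal brain. Mbp, myelin basic protein, was lower, with a difference of -1.07 (SE 0.27; limma adjusted p = 0.0287), a call lost without GL261 array 1, 2 or 4 or normal brain array 2 or 3 (adjusted p up to 0.0917). The part of RNA from these cells, or from GL261 cells, in the Saa3 and Serpina3n values was not tested.

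**Figure D4:**
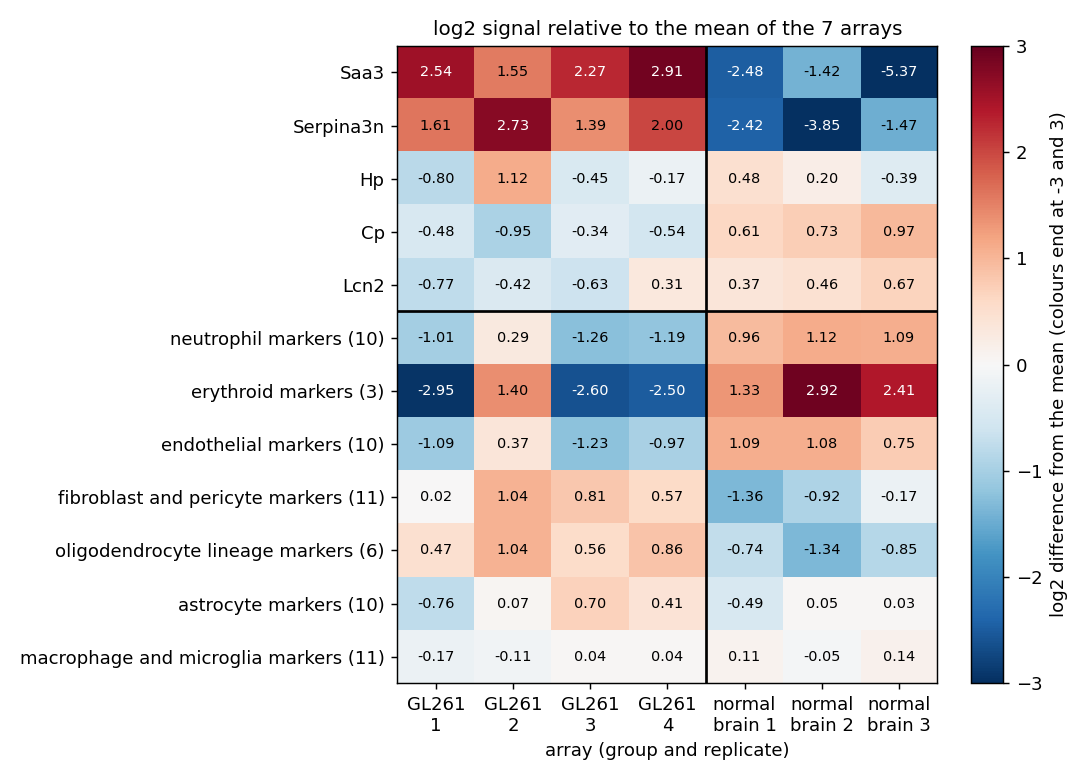
Difference of the log2 signal from the mean of the 7 arrays for the 5 acute-phase genes (top rows) and for the mean of each list of cell type markers (lower rows, number of tested genes in brackets), with the 4 GL261 arrays left and the 3 normal brain arrays right; colours end at -3 and 3. GL261 array 2 differs in sign from the other tumour arrays in Hp and in the neutrophil, erythroid and endothelial rows.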

How the data were processed

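MAS5 signals of 7 arrays were analysed, 4 of macrophages from GL261 tumours and 3 from normal brain. The authors deposited 1 linear signal intensity per probe set and array, made with MAS5 per the submitters' processing notes; which version, and whether probe sets were called present, is not stated there. Mean intensity after trimming 2% at each end lay near 500 on each array, and no scaling was added. MAS5 values of dim probe sets are noisy, and the number of arrays limits the precision.

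Of 45101 probe sets 64 were controls, 34945 carried 1 gene symbol in the platform annotation and 932 several; 162 gene IDs were not matched in RefSeq, and 0 symbols changed. Signals were taken as log2(signal + 6), the added value being the 20th percentile of all signals. Each gene was represented by its brightest probe set, and 12125 genes with a mean above 4.93, the 40th percentile, were tested with limma 3.58.1 (lmFit and eBayes with trend, two-sided, Benjamini-Hochberg adjusted over all 12125) in R 4.3.3. At an adjusted p under 0.05, 1227 genes were called. A value was called background where it lay below the 95th percentile of 27 Bacillus control probe sets on its array. Single array measures were compared by exact permutation. Figures were drawn with matplotlib 3.10.9 under Python 3.11.15.

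The 5 genes and all gene lists were chosen with earlier results of these data known. Named from each list were up to 3 called genes in the more frequent direction and 2 in the other, by size, or the 2 with the smallest p where none was called, with a set of pathway genes always named and the 3 genes most like each of the 5. Tested on simulated data with 200 of 12125 genes changed, this comparison recovered 28.0% of changes of 1 and 61.9% of changes of 2 on the log2 scale, with 3.57% of calls false. Alternatives were other added values, filters, scalings and probe set rules, the replicate number as a block, and leaving out arrays.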

Additional observations from a re-analysis of the deposited data

Results flagged for a closer look

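For 80 probe sets of the genes named or listed above, the highest or lowest of the 4 GL261 arrays was set against the others by Dixon's criterion, and 8 stood apart; chance gives about 1 in 20 such groups. None of the 12 probe sets of the 5 acute-phase genes was among them. All values are log2(signal + 6), and no explanation was tested. GL261 array 2 was lowest for Cfb at 12.21 (others 12.80 to 12.89), for Gzmb at 10.15 (others 11.28 to 11.50), for Gzmc at 10.35 (others 12.27 to 12.38), for Mertk, a receptor for apoptotic cells, at 11.31 (others 12.38 to 12.49) and for Socs3 at 11.83 (others 12.41 to 12.53). It was highest for Scarb1 at 11.23 (others 10.81 to 10.84) and for Cldn5, an endothelial tight junction protein, at 8.94 (others 4.8 to 5.48). GL261 array 1 was lowest for S100b, a marker of astrocytes, at 7.06 (others 8.01 to 8.17). Thus 7 of the 8 concern GL261 array 2.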

How the results depend on the processing

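No difference of the 5 genes reversed under 18 other settings or 1 more chosen after seeing the data, apart from Hp, whose difference near 0 lay between -0.57 and 0.07. The values of Saa3 and Serpina3n depended on the value added before the logarithm: adding 58 gave 4.02 for Saa3 and 2.66 for Serpina3n. Serpina3n was not tested with a filter at the 60th percentile. When 1 array was left out the differences were 4.27 to 6.24 for Saa3, 3.88 to 5.07 for Serpina3n, -1.43 to -1.22 for Cp and -1.11 to -0.75 for Lcn2. Of the 81 acute-phase and partner genes, 7 to 13 were then called higher and 4 to 7 lower (13 and 8 with all arrays); over all genes it was 305 to 761 higher and 237 to 445 lower (718 and 509). Centring arrays on their median gave 8 higher and 5 lower pathway genes and 304 lower over all genes. A variance prior that does not follow the signal gave 5 and 5 pathway genes and 282 higher and 173 lower over all genes. The mean of all probe sets of a gene gave 317 lower over all genes. Leaving out GL261 array 2 and normal brain array 1 together gave 5 lower pathway genes and 325 lower over all genes. The cause of these shifts was not tested. The groups share replicate numbers. Deviations of same-numbered arrays correlated weakly (r = 0.0792, -0.00754 and 0.031), against -0.0678 to 0.0551 for arrays of unlike number. With so few arrays these values cannot show whether the numbers pair them. With the replicate number as a block 501 genes were higher and 503 lower, 10 and 8 among pathway genes, and the differences were 5.21 for Saa3, 4.49 for Serpina3n, -0.14 for Hp, -1.36 for Cp and -1.11 for Lcn2. Signals below about 20 cannot be told from background.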
